A study of Mus musculus with 6 samples.

Results

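The genes described here are 33 mouse genes of connective tissue: the proteoglycans, elastic-fibre proteins, adhesive glycoproteins and crosslinking enzymes of the non-collagen extracellular matrix, together with markers of fibroblasts and contractile cells. They were chosen by symbol, with no measured value in the rule. All 33 symbols were found among the 56980 gene rows of the count table, and 32 of the genes had enough reads to be among the 17901 genes tested. The remaining gene, Tagln, had 30 reads over all 6 libraries and is given by its level alone.

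Messenger RNA was sequenced in bulk from 3 lung tumours with Keap1 knockout and from 3 control tumours. The labels class them as small cell lung cancer. The titles call all 6 QKO tumours, but the sample descriptions name the knockouts KP and the controls QKO. Whether both groups are of the same mouse model is therefore not settled by the labels. Tumours of both groups were collected about 4 months after the animals received virus. The comparison addresses how loss of Keap1, which binds NRF2 and directs it to the proteasome, alters these tumours. The labels do not spell out QKO or KP, nor say how Keap1 was inactivated or which cells of a tumour carry the change. They also do not give the age, sex or strain of the animals, or whether each tumour is from a different mouse. The p-values therefore cover only the variation among these 6 tumours, which may be partly technical.

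Fibroblasts, pericytes and smooth muscle cells lay down most of the matrix around a lung tumour. Fibrillin microfibrils and elastin give lung its recoil, small leucine-rich proteoglycans such as decorin bind and space collagen fibrils, lysyl oxidases crosslink collagen and elastin, and matricellular proteins such as tenascin-C, periostin and thrombospondins are deposited during wound repair, bone formation and around tumours. In bulk RNA, fewer cells of a type and less RNA per cell cannot be told apart.

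Libraries held 21801647, 22786776 and 23759892 reads in knockout tumours 1, 2 and 3, against 20065069, 19881823 and 18731515 reads in control tumours 1, 2 and 3. Levels are CPM, in which each library's adjusted total is made equal. Values are listed in the order of the tumour numbers. The labels do not say that these numbers pair tumours across groups. Keap1 itself stood at 67.5, 93.0 and 79.9 CPM in knockouts and at 78.4, 74.5 and 58.7 CPM in controls. The groups overlapped. Which part of the gene was altered is not stated, so this level is no check of the labels. Insm1, a transcription factor of neuroendocrine cells, was at 0.0933, 0 and 0 CPM in knockouts, or 2, 0 and 0 reads, against 17.97, 1.39 and 622 CPM in controls. This marker of the labelled cell type was thus at or near 0 in every knockout tumour and low in control 2. Xist, which marks female cells, was high in knockouts 2 and 3 and in control 2 (1291 to 1497 CPM) and at most 2.33 CPM in the other 3 libraries.

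The 33 genes added up to 2554, 2465 and 1862 CPM in the knockout tumours, against 2474, 10459.7 and 3835 CPM in the control tumours. Knockout sums averaged 2294 ± 376 CPM and control sums 5589.6 ± 4272 CPM (SD, n = 3 each). Control 1 lay within the knockout range, control 3 lay above it, and control 2 stood 4.56-fold above the knockout mean. As a share of all reads, the genes took 0.251%, 0.236% and 0.178% in knockouts, against 0.243%, 1.06% and 0.411% in controls. Adhesive glycoproteins made up most of the excess of control 2: they summed to 1319, 1191 and 829 CPM in knockouts, against 1075, 6658 and 1894 CPM in controls. The elastic-fibre genes summed to 442, 593 and 493 CPM in knockouts, against 745, 904 and 848 CPM in controls, and here every control lay above every knockout. That order rested on Fbln1: without it the sums were 430.1, 586 and 490.3 CPM in knockouts, against 385, 798 and 715 CPM in controls, with control 1 the lowest.

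**Figure D1:**
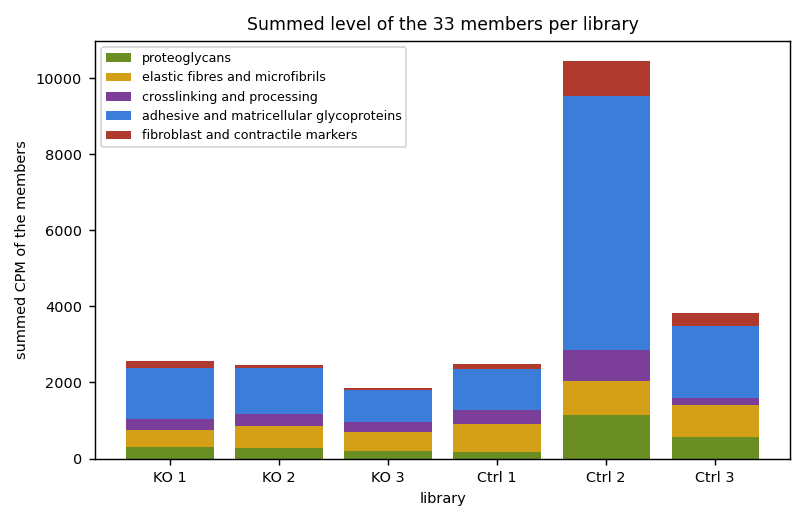
Stacked bars give the summed CPM of the 33 genes in each library (x axis, knockouts left), divided by role in 5 colours. Control 2 reaches 10459.7 CPM, while the knockouts lie between 1862 and 2554 CPM.

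With a threshold of 0.05 on the adjusted p from edgeR's quasi-likelihood fit, 1 of the 32 tested genes fell, the fibulin gene Fbln1, and 0 rose. The background is 1.89% of all tested genes lower in knockouts, 2.42% higher and 4.31% in either direction. At an unadjusted p below 0.05, 11 of the genes were lower and 1, the proteoglycan gene Ogn, was higher, where 16.9% of all tested genes are lower and 13.8% higher at that level. The edgeR log2 fold change, knockout over control, was negative for 26 genes and positive for 6, where 9644 of all 17901 tested genes were negative. Its median was -1.19, against -0.08 over all tested genes. That median depended on control 2: without this tumour it was -0.43, with 21 of the 32 values negative. Every knockout lay below every control for 5 genes (Fbln1, Aspn, Lox, Loxl2 and Pdgfra), where 19.1% of all tested genes show that order, and above for 1 gene (Ogn), where 21.5% of all tested genes do. As shares of the 32 genes, both counts of genes with groups apart lie below that background. Without control 1 the groups stood apart for 19 of the genes, 18 of them lower in knockouts, against 25.5% of all genes lower in that setting. Without control 3 they stood apart for 10 genes, 7 lower and 3 higher, against 26.6% of all genes lower and 28.4% higher. Without knockout 1 they also stood apart for 10 genes, 9 lower and 1 higher, against 23.0% lower and 24.6% higher.

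**Figure D2:**
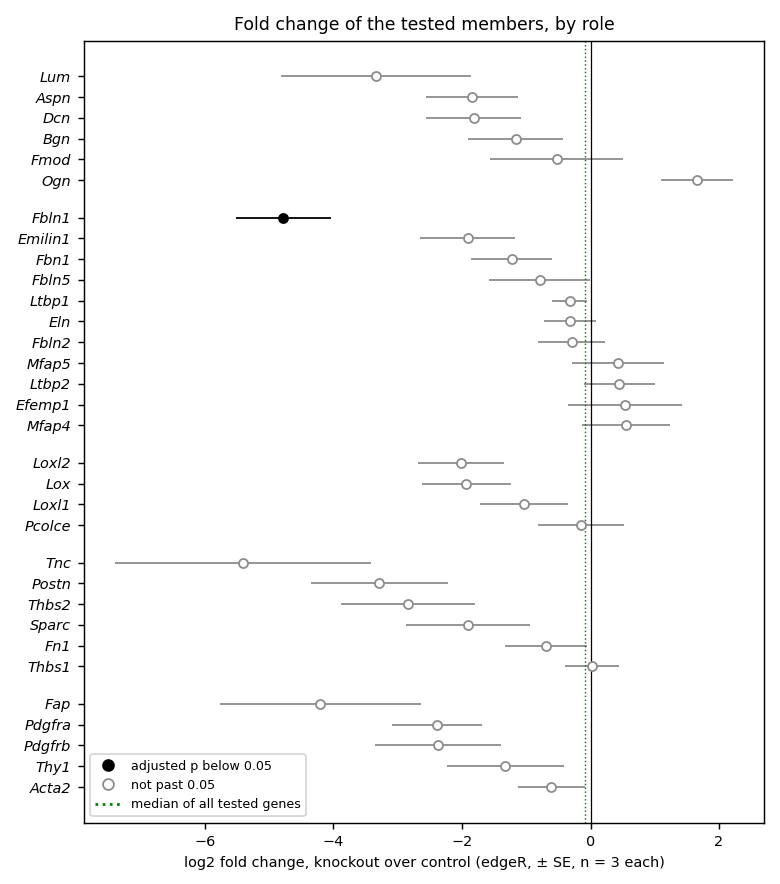
Points give the edgeR log2 fold change, knockout over control, of the 32 tested genes with the standard error as a bar (n = 3 tumours each), grouped by role. Fbln1, filled, is the 1 gene past the threshold, and the dotted line marks the median of all tested genes at -0.08.

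Promoter sequences of the genes that mark the patterns below are printed to show what precedes their start sites. Fbln1 is the 1 gene that passed the test, Ogn the 1 gene with every knockout above every control, and Sparc and Tnc are among those that stood highest in control 2. The RefSeq windows (build GRCm38.p6) span 250 bases before to 50 bases after the transcript start and are written 5′ to 3′ on the gene's strand. Their positions are chr15:85205699-85205998 on the plus strand for Fbln1, chr13:49607765-49608064 on the plus strand for Ogn, chr11:55420031-55420330 on the minus strand for Sparc and chr4:64046966-64047265 on the minus strand for Tnc. Capitals mark a TATA box (TATAAA) or a RUNX site, which reads TGTGGT or, on the other strand, ACCACA.

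Fbln1: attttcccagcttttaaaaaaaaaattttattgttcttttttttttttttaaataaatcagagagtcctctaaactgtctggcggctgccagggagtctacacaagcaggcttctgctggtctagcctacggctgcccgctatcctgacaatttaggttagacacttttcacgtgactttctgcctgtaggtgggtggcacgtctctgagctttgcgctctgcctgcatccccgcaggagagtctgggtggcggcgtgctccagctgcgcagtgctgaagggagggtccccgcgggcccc

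Ogn: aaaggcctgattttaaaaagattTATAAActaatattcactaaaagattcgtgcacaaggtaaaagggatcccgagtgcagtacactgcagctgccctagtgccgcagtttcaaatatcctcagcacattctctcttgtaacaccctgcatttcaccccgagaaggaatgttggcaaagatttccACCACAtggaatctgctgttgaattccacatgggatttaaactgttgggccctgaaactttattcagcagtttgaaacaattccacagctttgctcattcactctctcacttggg

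Sparc: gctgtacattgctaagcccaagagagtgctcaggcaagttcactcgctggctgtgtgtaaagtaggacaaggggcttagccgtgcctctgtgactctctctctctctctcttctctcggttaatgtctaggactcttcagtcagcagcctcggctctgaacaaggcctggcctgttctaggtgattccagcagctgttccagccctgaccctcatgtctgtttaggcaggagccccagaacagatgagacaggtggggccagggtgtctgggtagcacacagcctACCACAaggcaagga

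Tnc: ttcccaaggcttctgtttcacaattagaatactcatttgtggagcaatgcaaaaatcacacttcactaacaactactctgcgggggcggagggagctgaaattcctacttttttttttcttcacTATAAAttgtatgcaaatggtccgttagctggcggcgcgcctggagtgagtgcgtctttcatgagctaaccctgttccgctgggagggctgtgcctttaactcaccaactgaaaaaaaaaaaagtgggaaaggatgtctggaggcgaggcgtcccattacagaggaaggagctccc

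The Ogn window held a TATA box 227 bases and a RUNX site 65 bases before the start. Tnc had a TATA box 126 bases before the start, and Sparc had a RUNX site 36 bases after it. The Fbln1 window held none of the 5 motifs searched. RefSeq windows were matched for 19 of the 33 genes, in 24 entries of 300 bases, and were set against all 32851 entries of the same length. The antioxidant response element core through which NRF2 acts (TGACNNNGC, both strands) was in 4.17% of the entries of these genes, at Postn alone, against 12.4% of all entries. An AP-1 site (TGANTCA, both strands), which can overlap that core, was in 4.17%, at Efemp1, against 7.81% of all. RUNX sites were in 12.5%, at Ltbp1, Ogn and Sparc, against 16.8% of all. TATA boxes on the gene's strand were in 20.8% of the entries, at Aspn, Ogn, Postn and Tnc, against 8.32% of all. The CArG box of contractile genes, searched on both strands, was in 0 of the 24 entries, against 1.63% of all. These are matches of letters in short windows and do not show binding.

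Fbln1 (ENSMUSG00000006369) encodes fibulin-1, a glycoprotein of basement membranes and elastic fibres. It was measured at 11.4, 7.28 and 3.12 CPM in knockout tumours, against 359.5, 105 and 133 CPM in control tumours. All 3 knockouts were far below all 3 controls, and the highest was control 1. The means were 7.27 ± 4.15 CPM in knockouts and 199 ± 139 CPM in controls (SD, n = 3 each). Its log2 fold change was -4.78 ± 0.74 (SE, edgeR, adjusted p = 0.0381, unadjusted p = 0.000625). Without control 2 the adjusted p was 0.0539, and without knockout 1, 2 or 3 it was 0.138, 0.220 and 0.198. The fits without knockout 1, 2 or 3 called only 2, 0 and 0 of all genes. Losing the call there is therefore not particular to Fbln1. The fold change stayed between -5.23 and -4.03 with any tumour left out. With the Xist level as a term the adjusted p was 0.0790.

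The 3 other fibulin genes of the set, Fbln2, Fbln5 and Efemp1, overlapped between the groups. Fbln7 and Efemp2, further fibulin genes, were named after their values were seen. Fbln7 was at 2.24, 0.321 and 0.527 CPM in knockouts, against 3.81, 2.38 and 6.62 CPM in controls. Every knockout was below every control for Fbln7, and it did not pass (log2 fold change -2.05 ± 0.85, adjusted p = 0.166). Efemp2 was at 46.2, 41.0 and 22.4 CPM in knockouts and 15.2, 70.7 and 9.16 CPM in controls. Its groups overlapped (log2 fold change 0.21 ± 0.79, adjusted p = 0.879). Fbln2, a fibulin of vessel walls and basement membranes, was at 43.5, 29.7 and 19.5 CPM in knockouts and 53.2, 15.4 and 45.1 CPM in controls (log2 fold change -0.30 ± 0.52, adjusted p = 0.729). Fbln5, needed for elastic fibre assembly, was at 19.0, 25.1 and 13.1 CPM in knockouts and 17.7, 72.7 and 8.76 CPM in controls (-0.79 ± 0.79, adjusted p = 0.524). Both overlapped between the groups, with the lowest Fbln2 level in control 2, the tumour with the highest Fbln5 level. Efemp1, which encodes fibulin-3, was at 41.9, 40.9 and 57.0 CPM in knockouts, against 25.1, 67.6 and 3.83 CPM in controls. Its controls spread on both sides of the knockouts, with control 3 the lowest of the 6 (log2 fold change 0.53 ± 0.89, adjusted p = 0.708).

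Among the core elastic-fibre genes, Eln, which encodes elastin, was at 143, 269 and 252 CPM in knockouts and 179, 230.2 and 421 CPM in controls. The groups overlapped closely (log2 fold change -0.32 ± 0.41, adjusted p = 0.615), and control 2 did not stand out. Fbn1, the main fibrillin of microfibrils, was at 53.2, 45.8 and 30.6 CPM in knockouts and 30.1, 183 and 89.7 CPM in controls. Controls 2 and 3 were above all knockouts and control 1 was below them (-1.22 ± 0.63, adjusted p = 0.240). Emilin1, a glycoprotein at the interface of elastin and microfibrils, was at 16.1, 13.9 and 9.19 CPM in knockouts and 11.8, 95.9 and 39.8 CPM in controls. It had the same order as Fbn1 for controls 2 and 3, with control 1 inside the knockout range (-1.91 ± 0.74, adjusted p = 0.147).

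Mfap4 and Mfap5, microfibril-associated genes, had positive fold changes that did not pass. Mfap4, abundant in the walls of airways and vessels, was at 22.3, 59.2 and 27.1 CPM in knockouts and 9.95, 16.1 and 48.2 CPM in controls. Mfap5, a microfibril glycoprotein, was at 10.4, 9.02 and 6.77 CPM in knockouts and 2.49, 3.32 and 13.7 CPM in controls. Controls 1 and 2 were below every knockout for both genes, and control 3 was not; the log2 fold changes of 0.55 ± 0.69 and 0.42 ± 0.72 had adjusted p = 0.614 and 0.716. Their relative Mfap2, named after its values were seen, was at 3.36, 5.22 and 2.81 CPM in knockouts, against 2.99, 19.97 and 50.8 CPM in controls (-2.69 ± 0.97, adjusted p = 0.131). Without control 3, Mfap5 was called higher by edgeR (log2 fold change 1.59, adjusted p = 0.0405). Ltbp1, which tethers latent TGF-beta to the matrix, was at 18.0, 26.3 and 16.97 CPM in knockouts and 21.2, 28.1 and 27.4 CPM in controls. Ltbp2, a fibrillin-binding relative that does not bind TGF-beta, was at 62.8, 66.7 and 58.2 CPM in knockouts and 34.3, 85.8 and 17.6 CPM in controls. Ltbp1 was the steadiest gene of this group and Ltbp2 was even in the knockouts but not in the controls, and their log2 fold changes were -0.33 ± 0.27 and 0.45 ± 0.56 (adjusted p = 0.448 and 0.612).

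Small leucine-rich proteoglycans differed in direction among themselves. Ogn, which encodes osteoglycin, was at 9.33, 30.7 and 16.6 CPM in knockouts, against 3.45, 7.93 and 6.52 CPM in controls. Every knockout was above every control, and the log2 fold change of 1.66 ± 0.56 missed the threshold (adjusted p = 0.118). Aspn, which encodes asporin, was at 3.73, 4.12 and 2.29 CPM in knockouts, against 4.26, 7.98 and 24.1 CPM in controls. Every knockout was below every control, by a small margin for control 1 (-1.84 ± 0.72, adjusted p = 0.149). The pair lie close together on chromosome 13 of GRCm38, in the order Ecm2, Aspn, Omd and Ogn. Ecm2 and Omd, looked at after their values were seen, had log2 fold changes of -0.46 ± 0.53 and -0.60 ± 1.07 (adjusted p = 0.585 and 0.729).

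Dcn, the decorin gene and a standard fibroblast marker, was at 45.2, 25.3 and 24.5 CPM in knockouts, against 39.6, 57.1 and 238 CPM in controls. Here control 3 and not control 2 was the highest, 4.17-fold above the next library, and control 1 lay among the knockouts (log2 fold change -1.82 ± 0.74, adjusted p = 0.160). Lum, which encodes lumican, was at 6.71, 1.92 and 2.59 CPM in knockouts, against 0.609, 80.7 and 32.02 CPM in controls. Controls 2 and 3 were above all knockouts and control 1 was below all of them, so the log2 fold change of -3.33 came with an SE of 1.48 (adjusted p = 0.186). Bgn, which encodes biglycan, was at 224, 204 and 157 CPM in knockouts, against 125, 942 and 244 CPM in controls. It repeated that order (-1.16 ± 0.73, adjusted p = 0.322), and without control 2 its fold change was 0.11. Fmod, which encodes fibromodulin, was at 26.6, 8.29 and 5.19 CPM in knockouts and 2.49, 39.0 and 16.3 CPM in controls, with the groups overlapping (-0.53 ± 1.04, adjusted p = 0.755).

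Lysyl oxidases oxidise lysines of collagen and elastin so that the fibres crosslink. Lox was at 29.0, 26.8 and 31.7 CPM in knockouts, against 41.0, 236 and 56.8 CPM in controls. Loxl2 was at 15.6, 9.80 and 6.90 CPM in knockouts, against 19.5, 85.9 and 24.6 CPM in controls. For both genes every knockout was below every control and control 2 stood well above the others, with log2 fold changes of -1.93 ± 0.69 and -2.01 ± 0.67 that did not pass (adjusted p = 0.129 and 0.116). Loxl1, the lysyl oxidase of elastic fibres, was at 25.9, 29.9 and 19.1 CPM in knockouts and 14.2, 101 and 38.1 CPM in controls. Control 1 was below all knockouts (-1.03 ± 0.68, adjusted p = 0.342). Pcolce, which enhances cleavage of the procollagen C-propeptide, was at 222, 243 and 202 CPM in knockouts and 286, 401 and 50.8 CPM in controls. Its knockouts were tightly grouped, and controls lay on both sides of them (-0.15 ± 0.67, adjusted p = 0.900).

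Sparc, a collagen-binding matricellular glycoprotein abundant in bone, had the most reads of the set. It was at 468, 462 and 308 CPM in knockouts, against 277, 3752 and 613 CPM in controls. Control 2 was 6.12-fold above the next library, while control 1 was below every knockout (log2 fold change -1.91 ± 0.96, adjusted p = 0.231). Without control 2 the fold change was -0.08. Tnc, which encodes tenascin-C, a glycoprotein of wounds and tumour stroma, was at 10.5, 9.07 and 2.24 CPM in knockouts, against 19.4, 897 and 7.97 CPM in controls. A single tumour carried this gene: control 2 was 46.3-fold above the next library and 124-fold above the knockout mean, and control 3 lay within the knockout range. The log2 fold change of -5.41 had an SE of 1.99 (adjusted p = 0.136), and it was -0.89 without control 2.

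Postn and Thbs2 were instead highest in control 3. Postn, which encodes periostin, a matricellular protein of activated fibroblasts and periosteum, was at 70.4, 37.5 and 13.8 CPM in knockouts, against 58.6, 315 and 811 CPM in controls. Thbs2, which encodes the fibroblast protein thrombospondin-2, was at 10.5, 5.91 and 3.74 CPM in knockouts, against 4.26, 52.6 and 86.9 CPM in controls. Control 1 fell inside the knockout range for both, and controls 2 and 3 were above it. Their log2 fold changes were -3.28 ± 1.06 and -2.84 ± 1.04 (adjusted p = 0.109 and 0.134), and without control 1 Thbs2 passed the threshold (-3.38 ± 0.52, adjusted p = 0.0457). Thbs1, which encodes thrombospondin-1, an activator of latent TGF-beta, was at 190.05, 268 and 187 CPM in knockouts and 291, 247 and 96.9 CPM in controls. Fn1, the fibronectin gene, was at 569, 408 and 315 CPM in knockouts and 425, 1394 and 278 CPM in controls. Both overlapped between the groups, with log2 fold changes of 0.02 ± 0.43 for Thbs1 and -0.70 ± 0.64 for Fn1 (adjusted p = 0.977 and 0.485).

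**Figure D3:**
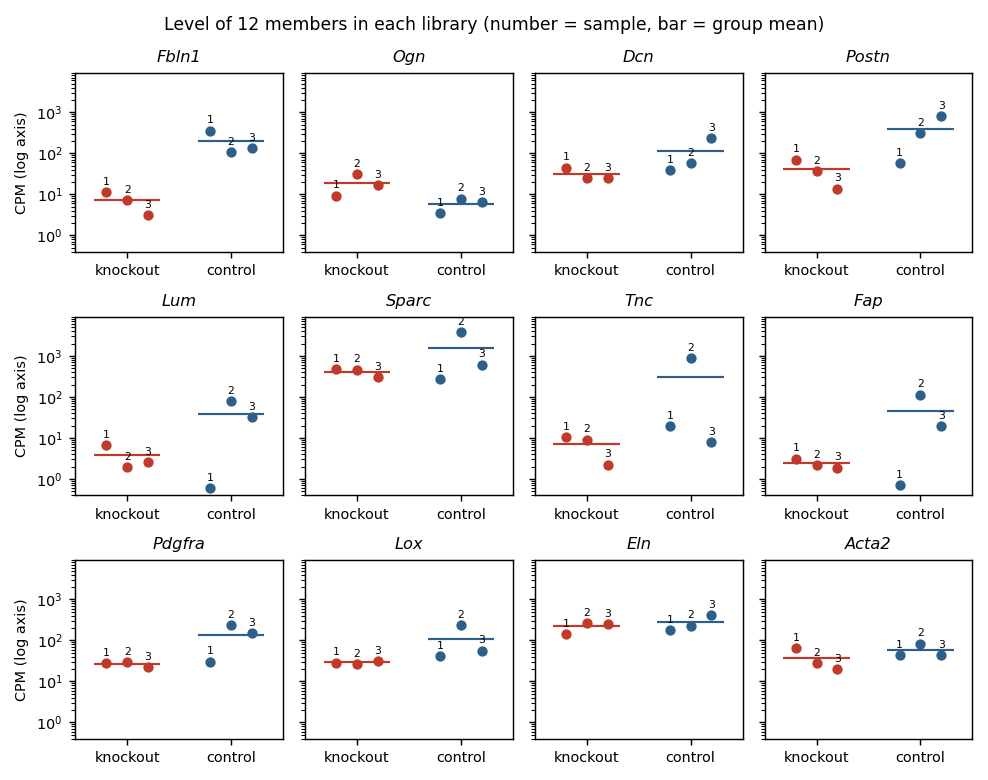
Each panel gives the CPM (log axis) of 1 gene in the 3 knockout tumours, left, and the 3 control tumours, right, numbered by tumour, with a bar at the group mean. Fbln1 is low in every knockout, at 3.12 to 11.4 CPM, while the Tnc mean of the controls rests on control 2 at 897 CPM.

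The receptor Pdgfra, a marker of lung fibroblasts that is bound by PDGF-A, was at 27.7, 29.3 and 22.8 CPM in knockouts, against 30.4, 236 and 151 CPM in controls. Every knockout was below every control, though control 1 exceeded the highest knockout by little. The log2 fold change of -2.38 ± 0.70 had an adjusted p of 0.0910, and without control 1 it was -2.85 with an adjusted p of 0.0319. Pdgfrb, the receptor of pericytes and fibroblasts, was at 64.6, 28.8 and 21.8 CPM in knockouts, against 36.5, 456 and 105 CPM in controls. Control 1 lay within the knockout range and control 2 was 4.35-fold above the next library (-2.37 ± 0.98, adjusted p = 0.163).

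Fap, the protease of activated tumour fibroblasts, was at 3.12, 2.20 and 1.89 CPM in knockouts, against 0.711, 113 and 19.1 CPM in controls. Control 2 was 47.1-fold above the knockout mean and control 1 was the lowest of the 6, which gave a log2 fold change of -4.20 ± 1.57 (adjusted p = 0.138). Thy1, a surface marker of fibroblasts that T cells and neurons also carry in mice, was at 26.1, 9.16 and 5.10 CPM in knockouts and 6.45, 52.1 and 42.7 CPM in controls (-1.33 ± 0.91, adjusted p = 0.356). Controls 2 and 3 were the highest for Thy1, and control 1 lay within the knockout range. Acta2, smooth muscle actin and the usual marker of myofibroblasts, was at 64.6, 28.0 and 19.6 CPM in knockouts and 43.4, 83.7 and 44.0 CPM in controls. It overlapped between the groups (-0.61 ± 0.52, adjusted p = 0.456). Tagln, which encodes the smooth muscle protein transgelin, was at 0.280, 0.320 and 0.088 CPM in knockouts and 0.102, 0.297 and 0.349 CPM in controls. Those are 6, 7 and 2 reads against 2, 6 and 7 reads, beside 5871 reads of Acta2 in the same libraries. In the GRCm38 annotation 67.9% of the exon bases of Tagln are covered by exons of other genes, most of them on the opposite strand. The handling of reads shared by several genes is not given in the sources used here, which leaves the Tagln level uncertain.

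Levels of the 32 genes differed widely between tumours of the same group, above all among the controls. Control 2 had the highest level for 21 of the 32 genes, where 14.2% of all tested genes are highest in that library. Control 3 was highest for 6 genes, control 1 for 3 and knockout 2 for 2. Control 2 was above all 3 knockouts for 26 genes and control 3 for 21, while control 1 was above them for 9, below them for 12 and within their range for 11. Over all tested genes, control 2 was above every knockout for 38.9%, control 3 for 41.7% and control 1 for 39.2%. Control 1 was below every knockout for 39.9% of all tested genes and within their range for 20.9%, so its 12 genes below are near that background. The median log2 ratio to the knockout mean was -0.13 in control 1, 1.94 in control 2 and 0.63 in control 3, against medians between -0.05 and -0.03 over all genes.

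The knockouts resembled each other more. The median SD of log2 CPM over the 32 genes was 0.46 among knockouts and 1.39 among controls, against 0.22 among knockouts and 0.58 among controls over all tested genes. The control SD was the larger for 29 of the 32 genes, as it was for 83.5% of all tested genes. Among the knockouts, tumour 3 had the lowest level for 26 genes, or 81.2%, against 34.1% of all tested genes, and tumour 1 the highest for 19. These positions were described after the levels had been seen and were not tested.

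**Figure D4:**
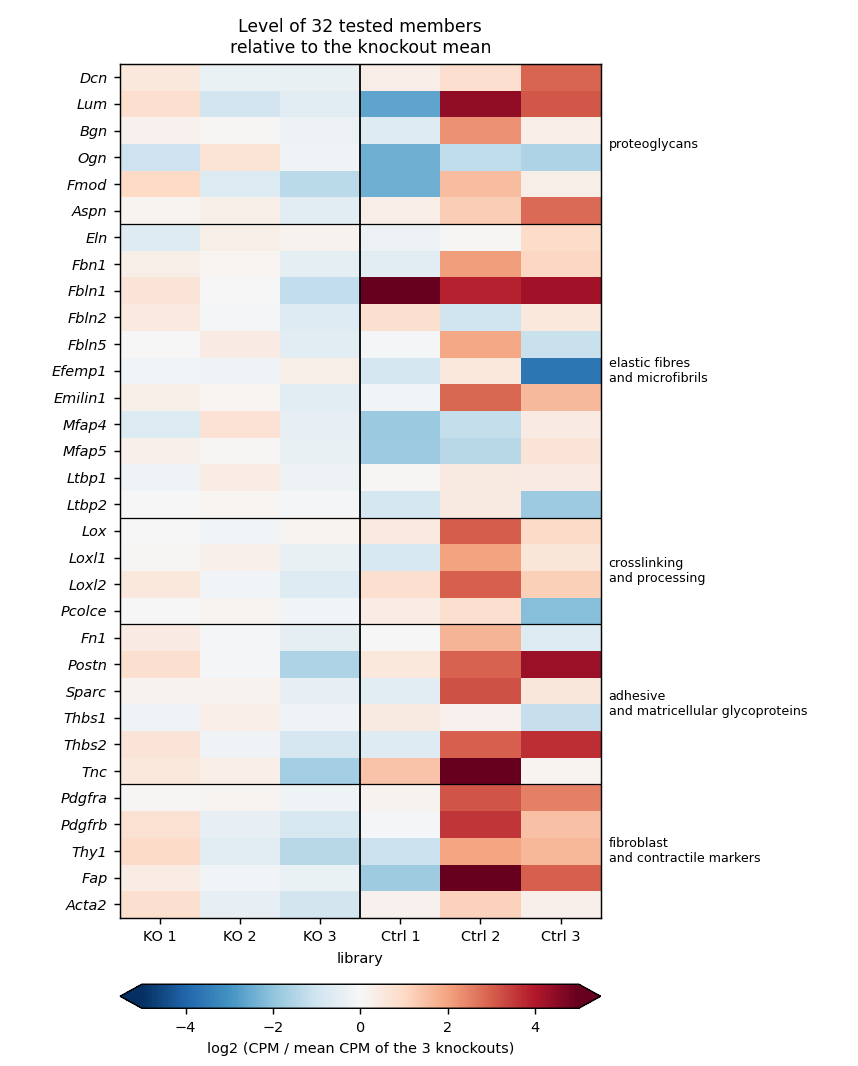
Colour gives the log2 ratio of each library's CPM to the mean CPM of the 3 knockouts for the 32 tested genes, in rows grouped by role, with knockouts left. Controls 2 and 3 are mostly red, Fbln1 is red in all 3 controls, and Ogn is blue in all 3.

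Levels per kilobase of annotated exon put Sparc first in 5 of the 6 libraries, at 124, 122 and 81.3 CPM per kb in knockouts and at 991 and 162 CPM per kb in controls 2 and 3. In control 1, Fbln1 led at 82.3 CPM per kb, with Pcolce at 74.9 and Sparc at 73.1. In knockouts Fbln1 was at 2.62, 1.67 and 0.714 CPM per kb. Pcolce was second to Sparc in every knockout, at 58.0, 63.6 and 52.8 CPM per kb. In control 2 the next levels after Sparc were Bgn at 154, Fn1 at 119 and Tnc at 115 CPM per kb. In control 3 Postn, at 93.2 CPM per kb, came second.

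The authors' deposited table, made with DESeq2, gives values for 32 of the 33 genes, all but Tnc. Of these, 9 had an adjusted p below 0.05, against 17.8% of all 22441 genes in the authors' deposited table. The 8 lower in knockouts there were Fbln1 (adjusted p = 1.20e-09 in the authors' deposited table), Postn (0.00679), Fap (0.00848), Pdgfra (0.00968), Thbs2 (0.0231), Loxl2 (0.0294), Lum (0.0424) and Lox (0.0441), and the 1 higher was Ogn (0.0386). DESeq2 run here on the same counts called 12 of the 32, 11 lower and Ogn higher, against 25.9% of all tested genes.

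Other matrix genes gave no call in edgeR. Of 31 further genes of the non-collagen matrix, 29 were tested, 0 passed and 11 were lower at an unadjusted p below 0.05, against the 16.9% of all tested genes given above. DESeq2 called 11, limma voom 0, and the median log2 fold change was -1.06. Vcan, which encodes the large proteoglycan versican, was at 6.95, 3.75 and 2.07 CPM in knockouts, against 6.24, 116 and 168 CPM in controls (-4.50 ± 1.21, adjusted p = 0.0794). Bmp1, the procollagen C-proteinase, was at 62.0, 53.4 and 57.9 CPM in knockouts, against 81.4, 356 and 211 CPM in controls (-1.90 ± 0.52, adjusted p = 0.0806). Of 7 fibrillar collagen genes, 6 were tested and 0 passed in edgeR, with 5 lower at an unadjusted p below 0.05, 5 called by DESeq2 and 0 by limma voom. They summed to 1075, 608 and 383 CPM in knockouts, against 525, 35159.9 and 4939 CPM in controls. Their smallest p-values were those of Col5a2 (-2.63 ± 0.77, adjusted p = 0.0904) and Col5a1 (-3.37 ± 1.10, adjusted p = 0.110).

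Signals and receptors that act on these cells gave 2 calls. In the TGF-beta pathway, the main inducer of matrix genes, 1 of 18 genes fell and 0 rose in edgeR, against 1.89% and 2.42% of all tested genes. The median log2 fold change of the 18 was -0.64. The gene that fell was Tgfbr1, the type I receptor, at 63.2, 49.2 and 61.1 CPM in knockouts, against 106, 194 and 185 CPM in controls. All knockouts were below all controls (log2 fold change -1.48 ± 0.28, adjusted p = 0.0464). Without knockout 1, 2 or 3 or control 2 its adjusted p was 0.174, 0.236, 0.226 and 0.0746. Every knockout lay below every control for 3 of the 18 genes and above for 3, against 19.1% and 21.5% of all tested genes. Those above, named after their values were seen, were Bambi (1.70 ± 0.44, adjusted p = 0.0749), Smad3 (0.94 ± 0.71, adjusted p = 0.398) and Tgfb3 (0.74 ± 0.39, adjusted p = 0.246). Among 18 integrins and other matrix receptors 1 fell and 0 rose, and 17 log2 fold changes were negative, with a median of -0.80. Of all 17901 tested genes, 1.89% fell, 2.42% rose and 9644 had a negative value. Control 3 was the lowest library for 11 of the 18 receptors, a larger share than the 5624 of all 17901 tested genes lowest there. The median log2 ratio of the receptors to the knockout mean was 0.77 in control 1, 1.43 in control 2 and -0.86 in control 3. Itgb8 encodes a subunit of an integrin that can activate latent TGF-beta. Itgb8 was at 0.326, 0.687 and 0.659 CPM in knockouts, against 9.09, 10.6 and 5.23 CPM in controls. It was low in every knockout and of like level in the 3 controls (-3.88 ± 0.53, adjusted p = 0.0326). Without knockout 1, 2 or 3 or control 2 the Itgb8 adjusted p was 0.138, 0.216, 0.209 and 0.0562. For both Tgfbr1 and Itgb8, the fits without knockout 1, 2 or 3 called only 2, 0 and 0 of all genes. Without control 3, edgeR called 6 of the TGF-beta genes and 7 of the matrix receptors, in a fit that called 17.2% of all genes.

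The 4 PDGF ligand genes gave 0 calls in edgeR, DESeq2 and limma voom, and 0 had an unadjusted p below 0.05. Pdgfb was at 29.0, 22.4 and 9.32 CPM in knockouts and 50.6, 128 and 12.05 CPM in controls (log2 fold change -1.65 ± 0.86, adjusted p = 0.246). Pdgfa, the ligand of Pdgfra, was at 62.3, 64.9 and 59.3 CPM in knockouts and 45.8, 88.2 and 23.5 CPM in controls (0.24 ± 0.46, adjusted p = 0.745). Of 10 transcription factors of lung fibroblasts and mesenchyme, 9 were tested and 0 passed in edgeR. At an unadjusted p below 0.05, 2 were lower, where 16.9% of all tested genes are. Limma voom called 0, and DESeq2, which called 25.9% of all tested genes, called the same 2. Those were Prrx1, at 10.1, 3.07 and 1.89 CPM in knockouts, against 11.1, 174 and 51.5 CPM in controls (-3.97 ± 1.18, adjusted p = 0.0931), and Twist1, at 1.31, 0.0916 and 0.396 CPM in knockouts, against 0.609, 73.0 and 7.37 CPM in controls (-5.49 ± 1.91, adjusted p = 0.123). Both were highest in control 2, like Pdgfrb and Fap.

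Markers of other cell types also differed between single tumours, and their part in the levels of the 33 genes was not tested. Counts in the lists below stand beside 16.9% of all tested genes lower and 13.8% higher at an unadjusted p below 0.05. DESeq2 called 25.9% of all tested genes and limma voom 5.13%. Bone and cartilage markers, 9 genes, summed to 64.5, 71.9 and 41.9 CPM in knockouts, against 178, 4418 and 51.8 CPM in controls, so they peaked in control 2 like Sparc and Tnc. Of the 7 tested, 0 passed in edgeR, 4 were lower and 1 higher at an unadjusted p below 0.05, DESeq2 called 3 and limma voom 0. By smallest p these were Acan (log2 fold change 4.55 ± 1.32, adjusted p = 0.0898) and Runx2, at 9.61, 12.4 and 7.9997 CPM in knockouts, against 108, 165 and 8.96 CPM in controls (-3.23 ± 0.97, adjusted p = 0.0951). In control 2 the bone genes Ibsp (2142 CPM), Mmp13 (1762 CPM), Sp7 (199.6 CPM) and Dmp1 (122 CPM), named after their values were seen, far exceeded every other library, where Ibsp was at most 1.19 CPM and Sp7 at most 0.398 CPM. Other genes of the list did not peak there: the osteoblast gene Bglap was at 0.140, 0.321 and 0.747 CPM in knockouts, against 0.305, 1.24 and 2.99 CPM in controls. Sox9, a cartilage factor also made by epithelium, was at 10.96, 8.79 and 7.78 CPM in knockouts, against 60.7, 9.66 and 18.6 CPM in controls. Acan, the aggrecan gene, was at 37.1, 49.04 and 23.5 CPM in knockouts, against 0, 2.68 and 1.99 CPM in controls.

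Pericyte and smooth muscle markers, 10 genes, summed to 252, 158 and 162 CPM in knockouts, against 279, 631 and 350.2 CPM in controls. In edgeR 0 passed, with 3 lower and 1 higher at an unadjusted p below 0.05, while DESeq2 called 4 and limma voom 0. Over all tested genes, 16.9% were lower and 13.8% higher at that level, and DESeq2 called 25.9%. The 1 higher was the smooth muscle gene Cnn1, named after its values were seen, with every knockout above every control. It was at 10.7, 11.5 and 9.41 CPM in knockouts, against 0.660, 1.14 and 4.93 CPM in controls (2.23 ± 0.80, adjusted p = 0.130). Notch3, the Notch receptor of mural cells, had the smallest p (log2 fold change -1.41 ± 0.36, adjusted p = 0.0742), followed by the pericyte proteoglycan Cspg4 (-3.11 ± 0.94, adjusted p = 0.0964). Among 5 mesothelium markers 4 were tested and 2 rose. Upk3b was at 79.1, 73.1 and 64.7 CPM in knockouts, against 0.355, 0.941 and 0 CPM in controls (7.36 ± 1.10, adjusted p = 0.0362). Lrrn4 was at 1.26, 3.34 and 2.99 CPM in knockouts, against 0.0508, 0.198 and 0.0996 CPM in controls (4.37 ± 0.68, adjusted p = 0.0377). Each was above its controls in every knockout, while the list's sum, 1362, 934 and 968 CPM in knockouts against 1565, 811 and 139 CPM in controls, overlapped. Krt19 made up most of that sum, and the other 4 genes summed to 101, 110.3 and 107 CPM in knockouts, against 47.2, 83.6 and 67.0 CPM in controls. Msln, the mesothelin gene, ran the other way, at 20.4, 32.5 and 36.7 CPM in knockouts, against 46.6, 82.3 and 66.9 CPM in controls, and did not pass (-1.13 ± 0.32, adjusted p = 0.0855). Upk3b passed in 2 and Lrrn4 in 1 of the 6 fits with a tumour left out. The adjusted p reached 0.217 for both, without knockout 2. The fits without knockout 1, 2 or 3 called only 2, 0 and 0 of all genes. Only leaving out control 2 or 3 kept the Upk3b call (adjusted p = 0.0494 and 0.00673), and only leaving out control 3 kept that of Lrrn4 (adjusted p = 0.0308).

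Endothelial markers, 8 genes, summed to 264, 315 and 207 CPM in knockouts and 271, 618 and 191 CPM in controls, and 7 of the 8 were highest in control 2. Of these 0 passed in edgeR, DESeq2 or limma voom, with 0 at an unadjusted p below 0.05, and Vwf (-0.61 ± 0.35, adjusted p = 0.283) and Kdr (-0.64 ± 0.59, adjusted p = 0.491) had the smallest p. Macrophage markers, 6 genes, summed to 534, 1123 and 609 CPM in knockouts and 704, 1164 and 238 CPM in controls. Lyz2 carried most of the knockout sums, and without it the other 5 genes summed to 137, 119 and 114 CPM in knockouts, against 247, 565 and 147 CPM in controls, with every control above every knockout. Of the 6 genes 0 passed in edgeR, with 3 lower at an unadjusted p below 0.05, 2 called by DESeq2 and 0 by limma voom, led by Adgre1 (-1.76 ± 0.57, adjusted p = 0.109) and Csf1r (-2.19 ± 0.85, adjusted p = 0.149). Lymphocyte markers were scarce, at 5.08, 5.04 and 3.25 CPM in knockouts and 3.15, 19.5 and 12.4 CPM in controls for 6 genes. In edgeR 0 of the 5 tested passed, with 1 lower at an unadjusted p below 0.05, 1 called by DESeq2 and 0 by limma voom. Cd4 (-3.13 ± 0.99, adjusted p = 0.105) and Ms4a1 (1.25 ± 0.89, adjusted p = 0.372) had the smallest p.

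General epithelial markers, 6 genes, summed to 5588, 4834 and 4630.4 CPM in knockouts, against 3041, 3264 and 706 CPM in controls, so every knockout was above every control. That order rested on Krt8 and Krt18, since the other 4 genes summed to 2124, 1865 and 1810.5 CPM in knockouts, against 2375, 1619 and 398 CPM in controls, with control 1 the highest. In edgeR 0 passed, with 2 higher at an unadjusted p below 0.05, which DESeq2 called and limma voom did not: Krt18 (2.05 ± 0.57, adjusted p = 0.0829) and Krt8 (1.70 ± 0.63, adjusted p = 0.136). Alveolar and airway markers, 8 genes, summed to 3206, 7841 and 7249.6 CPM in knockouts, against 1776.5, 2699 and 285 CPM in controls. The secretory gene Scgb3a2 rose, at 194, 245 and 415 CPM in knockouts, against 10.9, 27.8 and 6.12 CPM in controls (4.25 ± 0.68, adjusted p = 0.0391), and the other 7 did not pass. Without knockout 1, 2 or 3 or control 1 the Scgb3a2 adjusted p was 0.138, 0.217, 0.209 and 0.0618. The fits without knockout 1, 2 or 3 called only 2, 0 and 0 of all genes. Squamous and basal markers, 6 genes, summed to 558, 273 and 131 CPM in knockouts, against 6061, 140.1 and 14.6 CPM in controls, and so peaked in control 1, the tumour with the most Fbln1. Sprr1a, named after its values were seen, made up most of the knockout sums and had a positive fold change. It was at 492, 268 and 129 CPM in knockouts, against 153, 132 and 12.8 CPM in controls (1.58 ± 0.93, adjusted p = 0.291). In edgeR, DESeq2 and limma voom 0 of the 5 tested passed, with 0 at an unadjusted p below 0.05, and Krt5 (-7.90 ± 3.35, adjusted p = 0.172) and Trp63 (-6.41 ± 2.75, adjusted p = 0.177) had the smallest p. Neuroendocrine markers, 10 genes, summed to 214, 64.0 and 54.5 CPM in knockouts, against 115, 73.3 and 5296 CPM in controls, and so peaked in control 3, the tumour with the most Postn, Thbs2 and Dcn. In edgeR 0 of the 7 tested passed, with 4 lower at an unadjusted p below 0.05, 1 called by DESeq2 and 0 by limma voom, and Insm1 had the smallest p (adjusted p = 0.0712). With 2 reads over the 3 knockouts, no fold is given for Insm1. Calca, Uchl1 and Ncam1, named after their values were seen, made up most of the neuroendocrine sums of the knockouts. Calca was at 116, 32.5 and 19.9994 CPM in knockouts, against 37.001, 0.941 and 2037 CPM in controls. Uchl1 was at 47.9, 16.6 and 28.3 CPM, against 14.6, 18.6 and 422 CPM. Ncam1 was at 48.9, 13.6 and 5.23 CPM, against 16.9, 49.4 and 201 CPM. Chga, Chgb, Neurod1 and Dll3 were at most 0.366 CPM in every knockout, and Syp at most 0.835 CPM.

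**Figure D5:**
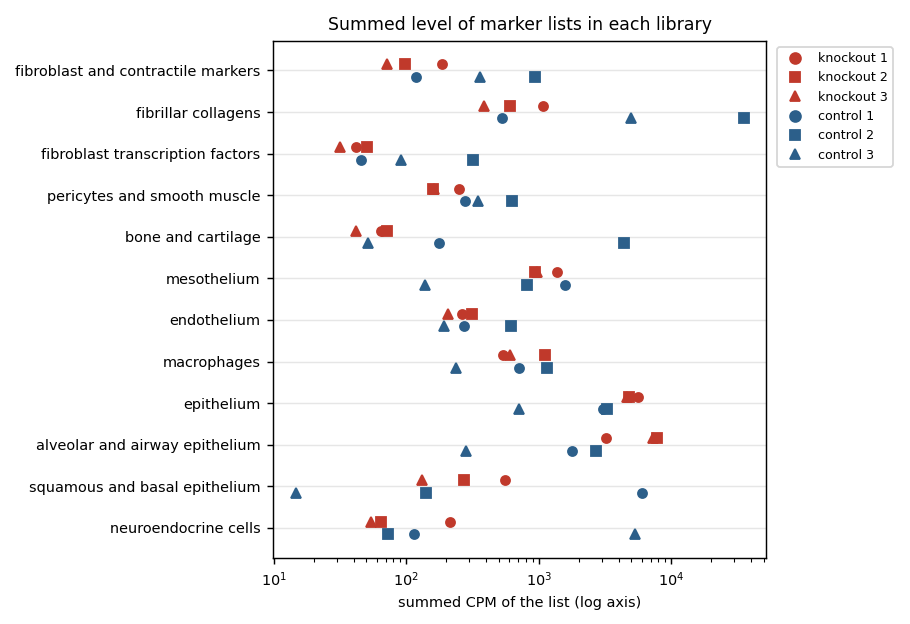
Each row gives the summed CPM (log axis) of a list of marker genes in the 6 libraries, with knockouts in red above controls in blue and the symbol's shape giving the tumour number. Control 2 is highest for fibroblast and contractile markers (941 CPM), fibrillar collagens and bone, control 1 for squamous markers and control 3 for neuroendocrine markers.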

How the data were processed

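The files hold deposited raw read counts per Ensembl gene for 3 Keap1 knockout and 3 control tumours, which the authors made by alignment with STAR to mm39, per the submitters' processing notes; for the counter, annotation and strand setting, nothing is given in the sources used here. The authors' deposited table of their comparison, credited to DESeq2 by the submitters' processing notes, gives log2 fold changes, mean counts, a test statistic score, p-values and adjusted p-values by symbol. Symbols were paired with 52073 of the 56980 identifiers.

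Genes were filtered with filterByExpr (minimum count 10, minimum total 15), which kept 17901. Counts were scaled by TMM and tested for genotype in edgeR 4.0.16 (R 4.3.3) by its quasi-likelihood test (robust, two-sided), with Benjamini-Hochberg adjustment over all tested genes and a threshold of 0.05. CPM are counts scaled to one TMM-adjusted total over the kept genes, and SE is the fold change over the root of the F statistic. The steps were tested on simulated data. DESeq2 1.42.0, limma voom (limma 3.58.1), other scalings and filters, a replicate block, an Xist term and each tumour left out were alternatives. Totals of 18731515 to 23759892 reads make 3 reads worth 0.132 to 0.152 CPM, which covers counting error only.

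Exon lengths and overlaps come from GENCODE annotation of GRCm38, an earlier build than that of the files, and promoters from RefSeq on GRCm38.p6. The genes and lists were chosen with earlier results of these data known. Every one of the 33 genes is named; of each other list, up to 4 genes past the threshold or else the 2 with the smallest p, and Keap1 and Xist. Sums without single genes, and Krt19, Msln, Lyz2, Bglap and Sox9, were chosen after their values were seen. So were Calca, Uchl1, Ncam1, Chga, Chgb, Syp, Neurod1, Dll3, Sprr1a, Bambi, Smad3, Tgfb3 and Cnn1. One gene that this rule names is not reported here. Deviations of same-numbered tumours from their group means had correlations of 0.018, 0.00012 and 0.051 over genes. Those of tumours with unlike numbers ran from -0.062 to 0.053. With so few tumours a group, this cannot exclude a shared animal or batch. The labels state no pairing, and the main test used none. No sample was left out.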

Additional observations from a re-analysis of the deposited data

How the results depend on the processing

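Relative to 1 of the 33 genes and 771 of all genes called by edgeR, DESeq2 called 12 and 4642, the replicate block 0 and 0, the Xist term 0 and 27, and a threshold of 0.1 called 2 and 3117. With no filter on low counts 465 genes were called in all. Leaving out 1 tumour gave 0 to 3 calls among the 33 and 0 to 3209 among all genes. The fits without knockout 1, 2 or 3 called 2, 0 and 0 of all genes. RLE and upper-quartile scaling, the filter of 1 CPM and both limma voom fits kept the count of 1. Over the fits with a tumour left out, the median log2 fold change ran from -1.62 (without control 1) to -0.43 (without control 2), the genes with groups apart numbered 6 to 19 (of all genes, 21.7% to 26.6% were apart and lower and 23.0% to 28.4% apart and higher), and 21 to 25 genes were highest in control 2, a count chosen after seeing the data. The cause of these shifts was not tested.

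Fbln1 was called in 10 of the 16 alternatives and stayed lower in all 16, with an adjusted p of 0.112 under the replicate block and 0.0790 with the Xist term. The pairing behind that block has no basis in the labels. Signs of genes that passed no test changed in at least 1 alternative for Thbs1, Pcolce, Fbln2, Bgn, Fmod, Eln, Fbln5 and Fn1. The simulated data held known fold changes, but how many of them were recovered is not reported here. Which differences 3 tumours a group can detect is therefore not stated.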
